A study of Mus musculus with 16 samples.

Results

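Dcakd and the 7 annotated genes of coenzyme A synthesis, Pank1, Pank2, Pank3, Pank4, Ppcs, Ppcdc and Coasy, were followed in bulk RNA sequencing of mouse heart ventricles. The 8 genes were taken by their symbols from the table of read counts, where they are 8 of 33399 genes, and all 8 were among the 16400 genes with enough counts to be tested. The mice were C57BL/6 wild types of both sexes with no engineered allele in either arm. Chronic kidney disease (CKD) mice, 4 males and 4 females, received chow with 0.25% adenine in alternation with standard chow for 6 weeks from 8 weeks of age, the schedule that the labels call high-dose. Controls, also 4 males and 4 females, had standard chow for the same time. Adenine given in food harms the kidney tubules, so this is a dietary model of kidney disease, and the heart was exposed to the diet as well as to the failing kidney. Blood urea nitrogen and body weight of single mice were not used here. Each library is a separate sample in the labels, and the p-values measure the spread between these samples.

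Coenzyme A carries acyl groups, and the heart, which lives largely on fatty acids, uses it to activate them and to feed acetyl units into the citric acid cycle. Cells make it from the vitamin pantothenate. Pantothenate kinases (PANK1, PANK2 and PANK3) add a phosphate and set the pace of the pathway, and coenzyme A and its thioesters inhibit them. PPCS then joins cysteine to the product, PPCDC removes the carboxyl group to leave phosphopantetheine, and COASY, which holds 2 enzyme activities in one protein, adds the nucleotide and a last phosphate. PANK4 resembles the kinases but lacks their activity and acts as a phosphatase on phosphopantetheine compounds, against the direction of synthesis. DCAKD owes its name to a domain like the bacterial dephospho-CoA kinases, which catalyse the same last phosphorylation as COASY.

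The genes lie on 5 chromosomes of the GRCm38 assembly. Dcakd (ENSMUSG00000020935.8, chr11:102994047-103028333, minus strand) and Coasy (ENSMUSG00000001755.12, chr11:101082565-101086619, plus strand) share chromosome 11 with Pank3 (ENSMUSG00000018846.8, chr11:35769484-35791285, plus strand). Pank4 (ENSMUSG00000029056.13, chr4:154964123-154980938, plus strand) and Ppcs (ENSMUSG00000028636.14, chr4:119418530-119422420, minus strand) are on chromosome 4. Pank1 (ENSMUSG00000033610.16) is at chr19:34806940-34879455 on the minus strand, Pank2 (ENSMUSG00000037514.17) at chr2:131262495-131299188 on the plus strand, and Ppcdc (ENSMUSG00000063849.6) at chr9:57385095-57440124 on the minus strand. The annotation holds 5 Dcakd transcripts, 2 of them protein coding, and 3 of the 5 start inside Nmt1, the neighbouring gene on the other strand, which encodes an N-myristoyltransferase. The 2 genes share 144 exon bases, 5.63% of the exon bases of Dcakd. The start that RefSeq gives for Dcakd is at 103017147, 11396 bases from that of Nmt1. The 300-base RefSeq window around this start (GRCm38.p6, chr11:103017098-103017397, minus strand, 250 bases before and 50 after it) is shown because Dcakd is the gene on which the CKD comparison turns. Capitals mark GGGCGG (the GC box) and GCGTG (the core of the sites of the aryl hydrocarbon receptor), both searched on either strand, with neighbouring copies allowed to overlap.
Dcakd promoter: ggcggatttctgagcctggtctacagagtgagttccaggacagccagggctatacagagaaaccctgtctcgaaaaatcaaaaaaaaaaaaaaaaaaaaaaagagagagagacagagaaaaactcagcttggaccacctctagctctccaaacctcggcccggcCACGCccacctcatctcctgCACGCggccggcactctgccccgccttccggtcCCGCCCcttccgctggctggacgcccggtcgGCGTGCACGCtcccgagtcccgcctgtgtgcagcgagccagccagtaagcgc
Of the window 59.0% is G or C, against a median of 52.7% over 32851 promoter windows of the same length. It holds 1 GC box, as do 35.7% of all windows (at least 1), and 4 copies of GCGTG, where 32.4% of windows hold at least 1 and 3.91% at least 3. CCAAT and TATAAA, which 37.4% and 13.6% of windows hold, are not in it. Of the other members, 6 have a promoter window in the same table, and all 6 hold GCGTG in at least 1 of theirs. These letter matches are a description of the sequence and say nothing on which factor binds.

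Introns of the 3 kinase genes hold microRNA genes of 1 seed family on the same strand and clear of the exons: Mir107 in Pank1 (chr19:34820687-34820773), Mir103-2 in Pank2 (chr2:131288052-131288137) and Mir103-1 in Pank3 (chr11:35782396-35782481). Their mature sequences, from RefSeq (GRCm38.p6), are shown because a change of the host transcript could carry over to them; capitals mark the seed, bases 2 to 8.
mmu-miR-103-3p: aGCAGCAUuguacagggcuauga
mmu-miR-107-3p: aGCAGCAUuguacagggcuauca
The seed GCAGCAU is common to both, and they differ by 1 substitution, G22C, counted from the 5′ end of mmu-miR-103-3p. The libraries did not measure these microRNAs usefully: over all 16 libraries the row of Mir103-2 held 5 counts and that of Mir107 held 1. The level of the mature forms was not analysed here.

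The libraries held between 10203707 and 13626039 counts, and Dcakd had 104 to 499 counts in each. Counts were scaled to library size by TMM and are given as counts per 1000000 (CPM). Within a group no pair of libraries agreed within sampling noise (chi-square of 7.36 to 53.1 per degree of freedom). Library male CKD 4 stood apart, with 1411 genes more than 0.5 log2 units above or below all other libraries, and female control 2 had 858 such genes. The ventricular label was checked on markers: 6 cardiomyocyte genes summed to 27116 to 39938 CPM in CKD and 23840 to 34817 CPM in control libraries, and 4 atrial genes to 149 to 729 CPM in CKD and 197 to 866 CPM in control libraries. Marker sums of fibroblasts (189 to 1057 CPM in CKD, 793 to 993 CPM in control), endothelium (309 to 815 CPM in CKD, 640 to 868 CPM in control) and pericytes with smooth muscle (429 to 1262 CPM in CKD, 883 to 1284 CPM in control) were lowest in male CKD 4; without it the lowest CKD sums were 649, 506 and 857 CPM. All 6 markers of each of these lists had a negative log2 fold change and 0 passed the test. Macrophage, lymphocyte, adipocyte, red cell and skeletal muscle sums overlapped between the arms, no marker was at 0 in every library, and Cd3e, Cd79a, Ms4a1, Nkg7, Lep, Retn, Myh4 and Myh1 averaged below 1 CPM. In bulk tissue, fewer cells of a type and less RNA per cell cannot be told apart.

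Dcakd was lower in the ventricles of CKD mice of both sexes. It was chosen for this difference, so its values here are a description. In the male CKD libraries it had 19.4, 21.5, 20.3 and 20.5 CPM, against 28.2, 23.4, 41.5 and 44.5 CPM in the male control libraries. In the female CKD libraries it had 9.85, 10.5, 14.5 and 14.98 CPM, against 22.4, 16.3, 33.5 and 29.2 CPM in the female control libraries. Within each sex every CKD library lay below every control library. Across the sexes the arms overlapped, because the lowest female control, at 16.3 CPM, was below all 4 male CKD libraries. The male CKD libraries lay close to one another, whereas the male controls fell into a lower and a higher pair.

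Over all mice Dcakd averaged 16.4 ± 4.63 CPM in CKD and 29.9 ± 9.61 CPM in control ventricles (SD, n = 8 each), with medians of 17.2 and 28.7 CPM. The fitted log2 fold change was -0.88 (SE 0.16, 95% interval -1.23 to -0.54), a level 54.2% of that in controls. By sex the fitted log2 fold change was -0.75 (SE 0.23) in males, whose means were 20.4 ± 0.868 CPM with CKD and 34.4 ± 10.2 CPM in controls (SD, n = 4 each). Among males, title number 6, a code explained by no source used here, covers only male CKD 1 and 3 and male control 1 and 2. In the libraries with title number 6 the male value, from these few libraries, was -0.37. The male controls with 41.5 and 44.5 CPM have the title numbers 3 and 2. The log2 fold change was -1.02 (SE 0.24) in females, whose means were 12.5 ± 2.66 CPM with CKD and 25.3 ± 7.57 CPM in controls (SD, n = 4 each). The difference of the CKD effect between the sexes was not used to choose the gene and could be tested: it was 0.27 log2 units, males minus females, with a 95% interval of -0.42 to 0.97 (edgeR's quasi-likelihood test, adjusted p = 1.0).

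Of all genes tested, 14, or 0.0854%, passed an adjusted p of 0.05 in the CKD comparison, and 7, or 0.0427%, were lower. Ranked by p, Dcakd was the 14th and last of them (adjusted p = 0.0493). Just inside stood Apln, the gene of the peptide apelin, with 4.79 CPM in CKD and 12.8 CPM in control ventricles, and just outside stood Gnmt, the gene of glycine N-methyltransferase, with 6.27 CPM in CKD and 3.29 CPM in control ventricles (adjusted p = 0.0735). With Dcakd, 21 genes, or 0.128%, were lower in all CKD libraries than in every control of the same sex. As Dcakd entered by this contrast, nothing is read from these counts.

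Several library properties ran alongside the level of Dcakd. The title number, which stands behind a C in the sample titles, was 6 in 5 CKD and 5 control libraries, and there Dcakd averaged 14.9 ± 4.86 CPM in CKD and 24.8 ± 6.47 CPM in control (SD, n = 5 each). In the libraries with other title numbers it averaged 19.0 ± 3.52 CPM in CKD and 38.4 ± 8.12 CPM in control (SD, n = 3 each), so CKD was lower in both sets. Libraries also differed in how their gene levels leaned with the GC content of transcripts. This lean, a Spearman coefficient across genes in each library, ran from 0.0360 to 0.406 in male CKD, from 0.00959 to 0.548 in male control, from -0.492 to 0.0123 in female CKD and from -0.471 to 0.145 in female control libraries. Dcakd, whose longest transcript is 58.8% G or C, followed the lean after group means were removed (Pearson r = 0.79, Spearman rho = 0.74, n = 16). By permutation within groups p was 0.00551 and 0.00948, and adjusted p was 0.0496 and 0.0569 over 36 relations. Without female CKD 4 and male control 3, whose lean was most extreme after this removal, r was 0.76. With GC and length trends removed from each library, the log2 fold change of CKD over control was -0.73, and without male CKD 4 and female control 2 it was -0.98.

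**Figure D1:**
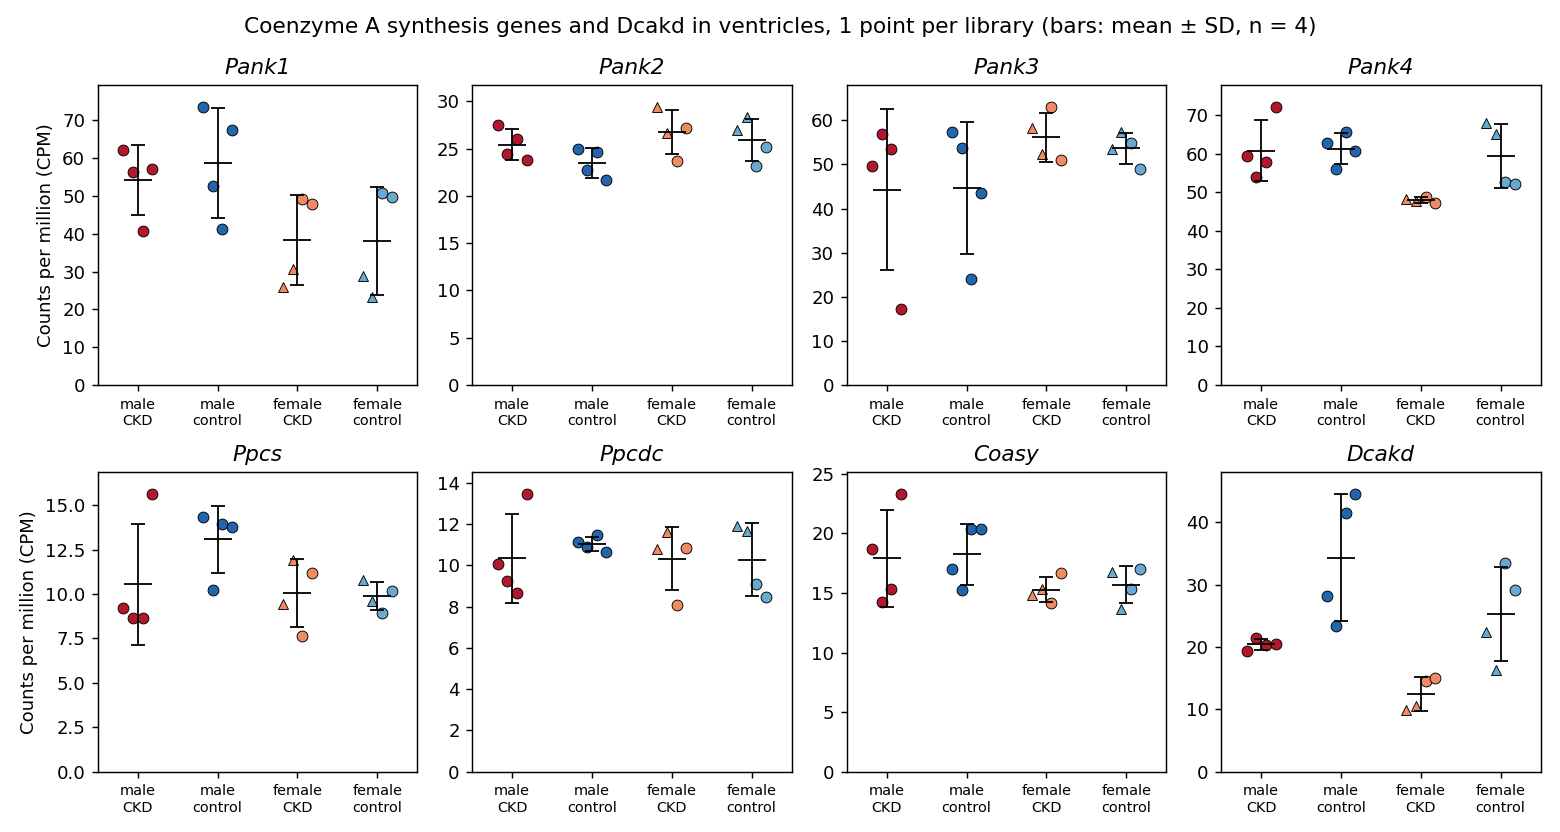
Counts per 1000000 (CPM, vertical axis from 0) of the 8 genes in each of the 16 libraries, by sex and arm, with mean and SD over 4 libraries; triangles are the 4 female libraries whose library names end in the numbers 3 to 6. Dcakd lies at 9.85 to 21.5 CPM in CKD and at 16.3 to 44.5 CPM in control libraries, with no overlap within a sex, while the arms of the other genes overlap except for Pank4 in females.

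The genes next to Dcakd had log2 fold changes near 0. Nmt1, whose exons overlap those of Dcakd on the other strand, averaged 103 ± 11.4 CPM in CKD and 103 ± 6.80 CPM in control ventricles (SD, n = 8 each), a log2 fold change of -0.01 (95% interval -0.17 to 0.16, edgeR adjusted p = 0.976). Plcd3, a phospholipase C gene, averaged 12.3 ± 5.74 CPM in CKD and 12.1 ± 5.09 CPM in control ventricles (log2 fold change 0.01, 95% interval -0.48 to 0.51, adjusted p = 0.981). These are the 2 tested genes of 6 annotated within 50 kb of Dcakd. Around all 8 members 19 tested genes lay within 50 kb, and by edgeR 0 of the 19 passed the adjusted threshold and 2 had an unadjusted p under 0.05, against 15.4% of all genes. Both lie beside Ppcdc: Scamp5, a secretory carrier membrane protein gene (log2 fold change -0.41, SE 0.12), and the pseudogene Gm6166 (-0.65, SE 0.17), which were named after their values were seen. DESeq2 called 1 of the 19, Gm6166, against 2.43% of all genes, and limma-voom 0.

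None of the 7 synthesis genes, with the phosphatase gene Pank4 counted among them, passed the test between CKD and control ventricles. By edgeR 0 of the 7 passed the adjusted threshold, against 0.0854% of all genes, and 0 had an unadjusted p under 0.05, against 15.4%. DESeq2 also called 0, with 0 under an unadjusted p of 0.05, and limma-voom called 0, with 2 under it. Their median log2 fold change was -0.05, with 2 above 0 and 5 below, beside a median of 0.00 over all genes. The widest interval ran from -0.39 to 0.45 log2 units, for Pank3, and the narrowest ran from -0.08 to 0.24, for Pank2.

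Pank1, the kinase gene that in the mouse is a target of the fatty acid receptor PPARα, had 25.8 to 62.1 CPM in CKD (median 48.5) and 23.2 to 73.5 CPM in control libraries (median 50.2). The arms overlapped throughout, and the log2 fold change was -0.05 (SE 0.19, 95% interval -0.44 to 0.34, edgeR adjusted p = 0.902). In the females the values of Pank1 fell into a lower and a higher set. The 4 libraries with numbers 3 to 6 had 25.8 and 30.6 CPM in CKD and 28.7 and 23.2 CPM in control mice. The other 4 had 49.2 and 47.8 CPM in CKD and 50.7 and 49.8 CPM in control mice. The library numbers, which no source used here explains, separated these females fully (27.1 ± 3.24 CPM for numbers 3 to 6 and 49.4 ± 1.21 CPM for the others, SD, n = 4 each), with both arms in each set. This split was seen in the values first and has no test. Dcakd was also lower in the same libraries within each arm, at 9.85 and 10.5 CPM in CKD and 22.4 and 16.3 CPM in control mice.

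Pank2, whose human counterpart acts in mitochondria and is mutated in a neurodegeneration with brain iron accumulation, had the smallest spread of the 8 genes within groups (pooled SD of log2 CPM 0.11). It averaged 26.1 ± 2.01 CPM in CKD and 24.7 ± 2.19 CPM in control ventricles (SD, n = 8 each), and its log2 fold change was 0.08 (SE 0.08, adjusted p = 0.639). Of its exon bases 22.9% overlap Rnf24, a ring finger gene on the other strand, or Gm14233. Since no source used here states a strand setting for the counting, reads there cannot be told apart.

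Pank3, the gene of a cytosolic kinase isoform that acetyl-CoA inhibits, had 17.2 to 63.0 CPM in CKD (median 52.9) and 23.9 to 57.3 CPM in control libraries (median 53.6). The lowest library of each arm, male CKD 4 with 17.2 CPM and male control 3 with 23.9 CPM, stood far below the rest, which began at 49.8 CPM in CKD and 43.6 CPM in control. These are the only 2 libraries with title number 3. The log2 fold change was 0.03 (SE 0.20, edgeR adjusted p = 0.955), and 0.15 at the most when any 1 library was left out.

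Pank4, the phosphatase, had the highest mean CPM of the 8 genes in each arm, 54.4 ± 8.58 CPM in CKD and 60.4 ± 6.13 CPM in control ventricles (SD, n = 8 each). Its median in CKD, 51.4 CPM, was below the 52.9 CPM of Pank3. In female CKD libraries Pank3, at 51.0 to 63.0 CPM, lay above Pank4. Over both sexes the log2 fold change was -0.16 (SE 0.09, 95% interval -0.35 to 0.03, edgeR adjusted p = 0.396). In females the 4 CKD libraries had 48.3, 47.8, 48.8 and 47.2 CPM, against 68.1, 65.2, 52.7 and 52.1 CPM in the 4 controls. The controls with 68.1 and 65.2 CPM have library numbers 5 and 6, and the latter is female control 2. The CKD libraries with numbers 3 and 4 had 48.3 and 47.8 CPM. The female arms did not overlap, as was so in either direction for 7.57% of all genes, and the log2 fold change was -0.31 (SE 0.12) with an edgeR adjusted p of 0.504. In males the CKD libraries had 59.4, 54.0, 58.0 and 72.1 CPM, against 62.9, 56.0, 65.7 and 60.8 CPM in the controls, a log2 fold change of -0.01 (SE 0.12). The difference between these effects was 0.30 log2 units, males minus females (95% interval -0.06 to 0.65, adjusted p = 1.0), so the sexes were not shown to differ.

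Ppcs and Ppcdc encode the middle steps. Ppcs, whose loss causes dilated cardiomyopathy in humans, averaged 10.3 ± 2.57 CPM in CKD and 11.5 ± 2.18 CPM in control ventricles (log2 fold change -0.15, SE 0.14, edgeR adjusted p = 0.638). In males 3 CKD libraries had 9.23, 8.65 and 8.67 CPM and the library male CKD 4 had 15.6 CPM, against 14.3, 10.2, 13.96 and 13.8 CPM in the controls. Female values lay between 7.63 and 11.9 CPM in CKD and between 8.93 and 10.8 CPM in control libraries. Ppcdc averaged 10.3 ± 1.73 CPM in CKD and 10.7 ± 1.23 CPM in control ventricles (log2 fold change -0.05, 95% interval -0.29 to 0.20, adjusted p = 0.866). Its highest value in CKD, 13.5 CPM, was again in male CKD 4, and 14.1% of its 25-base words also occur in other genes.

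Coasy, which completes the pathway, averaged 16.6 ± 3.09 CPM in CKD and 17.0 ± 2.38 CPM in control ventricles (SD, n = 8 each). It ranged from 14.2 to 23.3 CPM in CKD and from 13.7 to 20.4 CPM in control libraries, and the log2 fold change was -0.03 (95% interval -0.26 to 0.20, edgeR adjusted p = 0.893). Per kilobase of exon, the ratio of Dcakd to Coasy was 0.744 to 1.69 in CKD (median 1.08) and 1.34 to 2.45 in control libraries (median 1.89). This ratio carries the difference that chose Dcakd and adds no evidence to it.

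**Figure D2:**
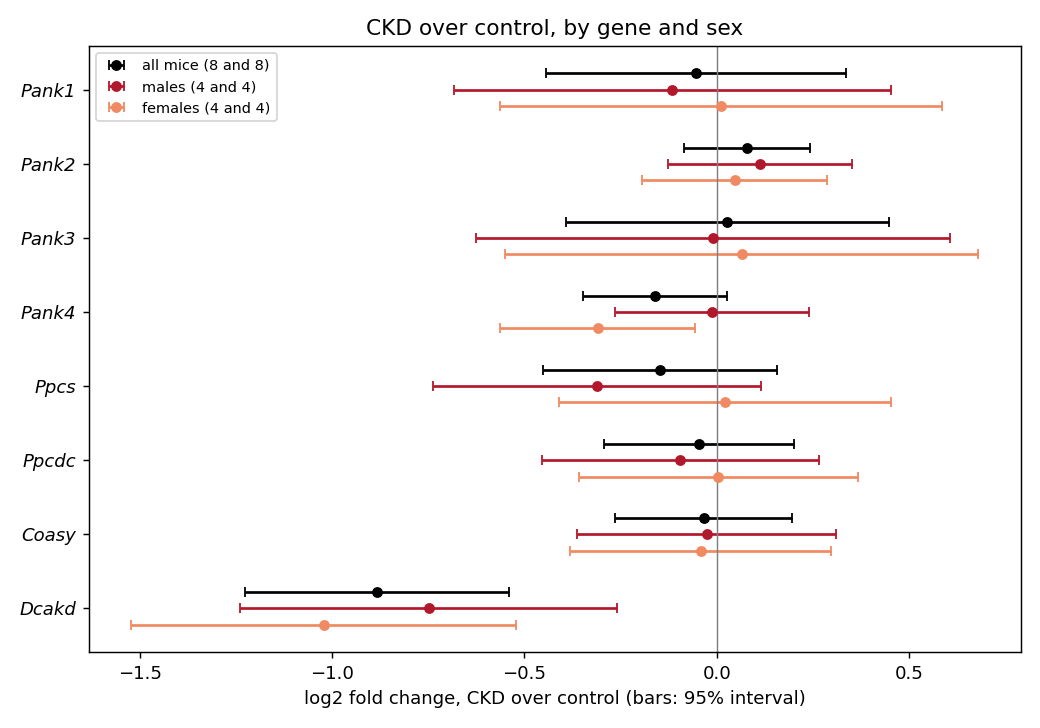
Fitted log2 fold changes of CKD over control (horizontal axis) for the 8 genes, over all mice and in each sex, with 95% intervals. For Dcakd, which was chosen on this contrast, the points lie at -0.88, -0.75 and -1.02; the intervals of the other genes reach 0 except that of Pank4 in females.

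The 7 synthesis genes were also tested within each sex. By edgeR 0 of the 7 passed the threshold in males, where 0% of all genes did, and 0 had an unadjusted p under 0.05, against 6.88% of all genes. In females 0 of the 7 passed, against 0.0549% of all genes, and 1, Pank4, had an unadjusted p under 0.05, against 8.34%. DESeq2 and limma-voom called 0 in each sex, with 0 and 1 in males and 1 and 1 in females under an unadjusted p of 0.05. For the difference between the sexes in the CKD effect, 0 of the 8 genes and 0% of all genes passed, with 0 of the 8 and 1.68% of all genes under an unadjusted p of 0.05. DESeq2 and limma-voom called 0 there as well, with 0 and 1 under an unadjusted p of 0.05.

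**Figure D3:**
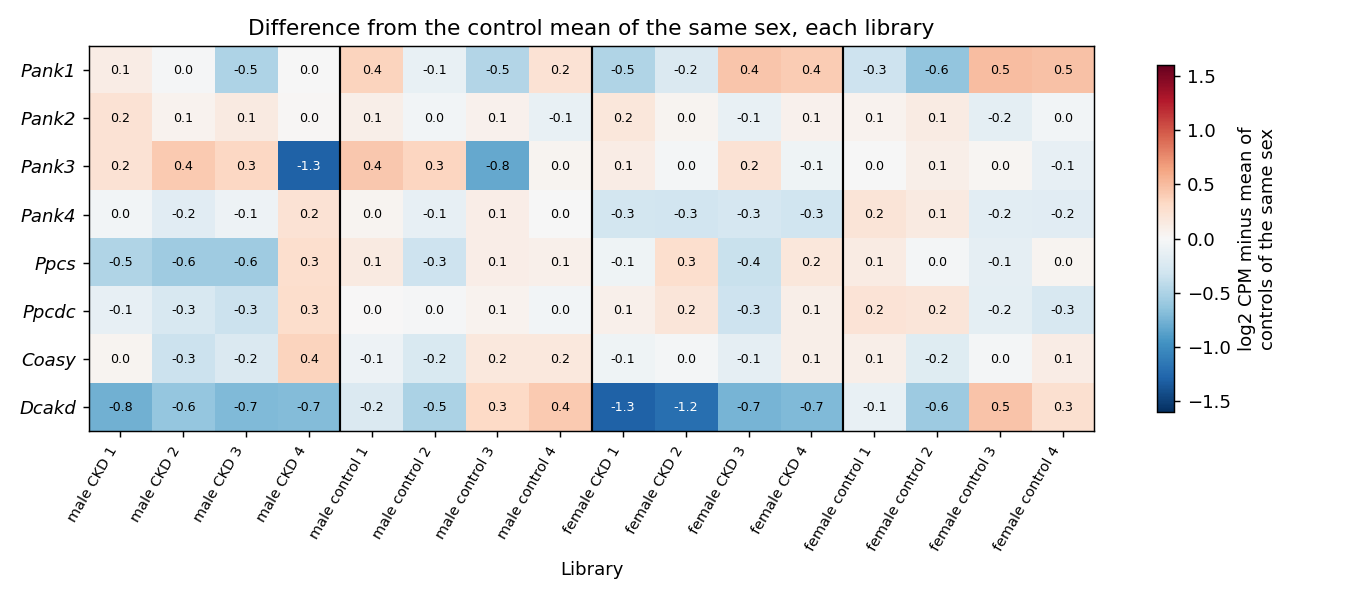
Log2 CPM of each gene (rows) in each library (columns) minus the mean of the controls of the same sex, as colour and number. The row of Dcakd is negative in all 8 CKD libraries, from -1.30 to -0.62, and the column of male CKD 4 shows -1.30 for Pank3.

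Males and females were also compared within each arm, a contrast that did not choose the genes, although the libraries are those of the CKD comparison that chose Dcakd. Among control mice 0 of the 8 genes passed by edgeR, against 0.0366% of all genes, and 1 had an unadjusted p under 0.05, against 6.84%. That gene was Pank1, with 58.7 CPM in male and 38.1 CPM in female controls (log2 difference 0.62, males minus females, SE 0.27, adjusted p = 0.639). Of the 4 female controls 2 have library numbers 3 to 6, a set that holds no male and was picked for its low Pank1. With these numbers as a factor, a setting chosen after seeing the data, the difference was 0.26. Such a factor makes the difference smaller by construction, so this value decides nothing on sex. Among CKD mice 0 of the 8 passed, against 0.0427% of all genes, and 2 had an unadjusted p under 0.05, against 15% of all genes. These were Dcakd, with 20.4 CPM in male and 12.5 CPM in female CKD mice (0.71, SE 0.24, adjusted p = 0.255), and Pank4, with 60.9 CPM in male and 48.0 CPM in female CKD mice (0.34, SE 0.12, adjusted p = 0.259). With limma-voom Dcakd passed in CKD mice (adjusted p = 0.0391), as did 9.48% of all genes. With GC and length trends removed its difference was 0.21. With library numbers 3 to 6 as a factor it was 0.43. Dcakd was also lower in those female libraries, so the latter value decides nothing on sex either. In controls Dcakd had 34.4 CPM in males and 25.3 CPM in females (0.44, SE 0.23, adjusted p = 0.639). That difference turned to -0.06 with GC and length trends removed. It was 0.06 in the libraries with title number 6, where male control 1 and 2 are the only male controls.

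Levels of different genes were compared per kilobase of annotated exon and per 1000000 counts (RPKM). In control ventricles Pank4 came first with 17.3 ± 1.76 RPKM, followed by Dcakd with 11.7 ± 3.76, Ppcs with 7.15 ± 1.36, Pank3 with 6.66 ± 1.51, Coasy with 5.92 ± 0.831, Pank1 with 5.85 ± 2.09, Pank2 with 5.03 ± 0.445 and Ppcdc with 1.84 ± 0.213 RPKM (SD, n = 8 each). The control values of Dcakd had a part in its choice, so its place is a description: it lay below Pank4 and above Ppcs in 8 of 8 control libraries. With the longest transcript as length it lay below Pank4 in 7 of 8. Of the neighbouring pairs without Dcakd, Pank2 over Ppcdc differed within libraries by an exact two-sided sign-flip permutation test, in 8 of 8 libraries. Its p was 0.00781, the smallest that 8 libraries allow in this test. The adjusted p was 0.0182 over the 7 pairs, with the pairs of Dcakd counted among them. The order, and so the choice of pairs, came from the same control libraries. The gap of Pank2 over Ppcdc was 1.46 log2 units. With the longest transcript as length it was 0.61, again in 8 of 8 libraries. The other 4 pairs, from Ppcs down to Pank2, did not differ beyond their spread (adjusted p = 0.680 for each), and their order below Ppcs was another one with the longest transcript as length. Among tested protein-coding genes the control level of Pank4 lay at the 83.1 percentile, that of Dcakd at 76.0 and that of Ppcdc at 30.2, with the other 5 genes between 55.5 and 65.1. These percentiles rest on the union of exons, which for Ppcdc is 5803 bases, against 2797 in its longest transcript.

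In CKD ventricles Pank4 with 15.6 ± 2.46 RPKM and Ppcdc with 1.78 ± 0.299 RPKM (SD, n = 8 each) kept the first and last places. Dcakd, with 6.43 ± 1.81 RPKM, came between Ppcs with 6.41 ± 1.602 and Coasy with 5.78 ± 1.08 RPKM when ordered by the mean log2 level. Of the 7 neighbouring pairs, taken in the order of the same CKD libraries, 2 differed by the exact permutation test. These were the pairs that set off Pank4 and Ppcdc (permutation test, adjusted p = 0.0273). The place of Dcakd among the genes follows from the difference that chose it.

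**Figure D4:**
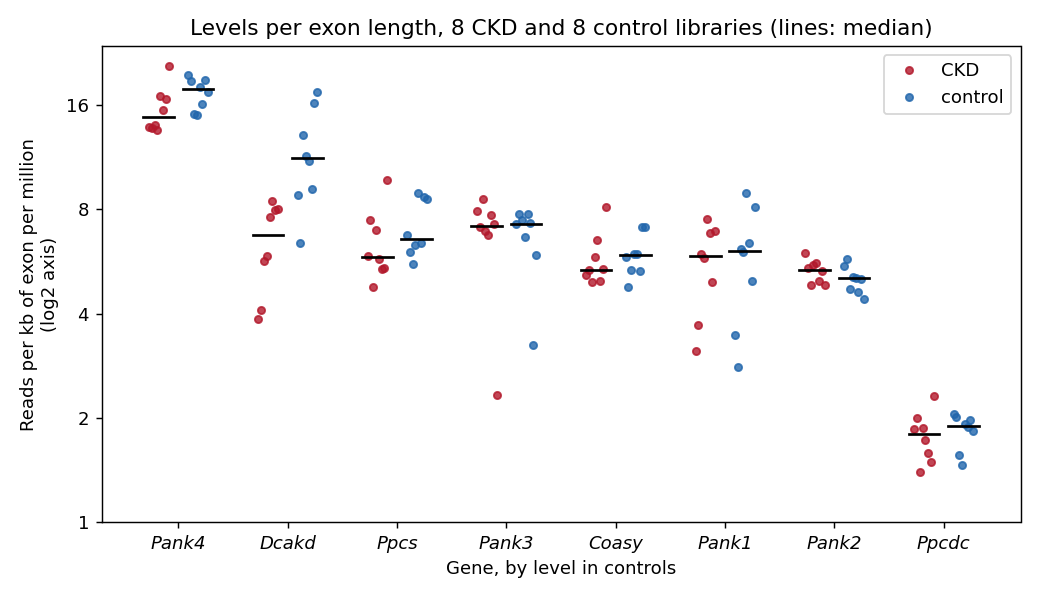
Reads per kilobase of exon per 1000000 counts (RPKM, log2 axis) of the 8 genes in 8 CKD and 8 control libraries, ordered by level in controls, with the median of each arm as a line. Pank4 lies highest and Ppcdc lowest in both arms, and the CKD libraries of Dcakd, at 3.85 to 8.42 RPKM, fall among those of Ppcs, Pank3 and Coasy.

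The parts of the 3 active kinase isoforms in their summed RPKM were close between the arms. Pank1 made up 31.7% ± 9.42 in CKD and 32.9% ± 9.21 in control ventricles, Pank2 30.3% ± 3.90 in CKD and 29.3% ± 5.65 in control, and Pank3 38.0% ± 9.52 in CKD and 37.8% ± 7.27 in control ventricles (SD, n = 8 each). By group means the order of the isoforms was not the same in the sexes, which was not tested. Among controls Pank1 averaged 39.4% in males and 26.5% in females, and Pank3 33.0% in males and 42.6% in females. Among CKD mice Pank1 averaged 37.5% in males and 25.9% in females, and Pank3 32.9% in males and 43.1% in females. In the female libraries with numbers 3 to 6 the part of Pank1 was 17.2% to 22.8%, against 30.8% to 33.9% in the other females. In male CKD 4 the part of Pank1 was 49.1% and that of Pank3 16.5%, and in male control 3 that of Pank3 was 24.5%. The medians of Pank1 and Pank3 were 36.4% and 36.7% in male CKD libraries. In male control libraries they were 39.2% and 33.9%. The order of the means in male CKD mice is thus not seen in the medians.

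The genes varied together from library to library only in part. With group means removed, 28 pairs of members and the relation of each member to the GC lean were computed over 16 libraries, and for 4 of these 36 relations Pearson's r had an adjusted p under 0.05 (permutation within groups). Coasy ran against Pank3 (r = -0.81, rho = -0.84, permutation p = 0.00014 and 0.00019, adjusted p = 0.00504 and 0.00684), with r = -0.64 without the 2 libraries most extreme in Coasy. Coasy ran with Ppcs (r = 0.79, rho = 0.71, permutation p = 0.00173 and 0.00434, adjusted p = 0.0311 and 0.0391), with r = 0.63 without the same 2. By Spearman's rho alone 2 more passed, Pank3 against the GC lean (rho = -0.66, r = -0.41, permutation p = 0.00243 and 0.0922, adjusted p = 0.0292 and 0.207) and Ppcs with Ppcdc (rho = 0.71, r = 0.76, permutation p = 0.00657 and 0.00757, adjusted p = 0.0473 and 0.0545), where r was -0.29 and 0.53 without the 2 most extreme libraries. The other 2 by Pearson's r were the relations of Dcakd, given above, and of Coasy to the GC lean. For Coasy r was 0.67 and rho 0.78 (permutation p = 0.00406 and 0.00112, adjusted p = 0.0487 and 0.0202). Without female CKD 4 and male control 3, the libraries of most extreme lean with group means removed, r was 0.64. Dcakd and Coasy had r = 0.43 and rho = 0.51 (permutation p = 0.0602 and 0.0586, adjusted p = 0.159 and 0.163), and r = 0.19 without the 2 libraries most extreme in Dcakd. By rho, Coasy and Pank3 thus followed the lean in opposite directions. The libraries share their RNA quality, depth and GC lean across all genes, and the part of these in the relations between members was not tested.

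Among 11690 protein-coding genes averaging 1 log2 CPM or more, the library pattern most like that of Dcakd after removal of group means was found for Mospd3, a motile sperm domain gene (r = 0.93, rho = 0.89), Smtn, which encodes the smooth muscle protein smoothelin (r = 0.93, rho = 0.94), and Oaf (r = 0.93, rho = 0.89). Without the 2 libraries most extreme in Dcakd, r was 0.89, 0.92 and 0.86. The median r over all these genes was -0.03 and the 99th percentile 0.86. For Coasy they were Coq10a, a coenzyme Q binding gene (r = 0.94, rho = 0.94), Ppm1j, a protein phosphatase gene (r = 0.94, rho = 0.91), and Glb1, the lysosomal beta-galactosidase (r = 0.93, rho = 0.95), where r was 0.90, 0.89 and 0.92 without the 2 libraries most extreme in Coasy. These are the 3 highest of 11690 and were picked for their r, so no p is given.

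Genes that move, use or break down coenzyme A, and a list of PPAR targets often measured with Pank1, were read from 8 lists. These lists held 71 tested members. By edgeR 0 of the 71 passed the adjusted threshold in CKD against control, and 6 had an unadjusted p under 0.05, against 15.4% of all genes. DESeq2 and limma-voom each called 1, Abcd2 in both, while DESeq2 called 2.43% and limma-voom 1.21% of all genes. Under an unadjusted p of 0.05 DESeq2 had 6 of the 71, against 15.9% of all genes, and limma-voom 11, against 19.3%.

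Of 6 pantothenate and CoA transporters, 1 had an unadjusted p under 0.05, and the median log2 fold change was 0.01. Abcd2, a peroxisomal importer of very long-chain acyl-CoA, averaged 11.7 CPM in CKD and 8.54 CPM in control ventricles (log2 fold change 0.44, SE 0.12, edgeR adjusted p = 0.123). Slc25a16, a proposed mitochondrial CoA carrier, averaged 57.6 CPM in CKD and 45.8 CPM in control ventricles (0.32, SE 0.16, adjusted p = 0.351). The 6 tested of 8 genes for breakdown of CoA and pantetheine had a median of -0.08, with 0 under an unadjusted p of 0.05. The lowest p values there were those of Nudt8, a mitochondrial CoA diphosphatase, with 1.23 CPM in CKD and 1.54 CPM in control ventricles (-0.34, SE 0.19, adjusted p = 0.411), and Enpp1, an ectonucleotide pyrophosphatase, with 8.25 CPM in CKD and 9.41 CPM in control ventricles (-0.19, SE 0.12, adjusted p = 0.472).

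The 9 genes whose proteins carry the phosphopantetheine arm, attach it or act on the acyl chains it holds had a median of -0.04, with 0 under an unadjusted p of 0.05. Fasn, the fatty acid synthase, averaged 20.4 CPM in CKD and 32.4 CPM in control ventricles, with a wide interval of the log2 fold change (-0.65, 95% interval -1.39 to 0.09, edgeR adjusted p = 0.384). Oxsm, the mitochondrial ketoacyl synthase, averaged 38.8 CPM in CKD and 32.6 CPM in control ventricles (0.26, SE 0.16, adjusted p = 0.447). Of 13 acyl-CoA synthetases, which load fatty acids onto CoA, 2 had an unadjusted p under 0.05 in opposite directions, and the median was 0.00. Acsl6 averaged 20.7 CPM in CKD and 16.7 CPM in control ventricles (0.32, SE 0.13, adjusted p = 0.253), and Acsl5 averaged 20.6 CPM in CKD and 26.0 CPM in control ventricles (-0.33, SE 0.14, adjusted p = 0.275). Acsl1, the main isoform of the heart, averaged 1098 CPM in CKD and 1086 CPM in control ventricles (0.00, 95% interval -0.26 to 0.26); it was added to the named genes after the values were seen.

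The 11 tested of 14 thioesterases, which release CoA from acyl-CoA, had a median of -0.03, with 1 under an unadjusted p of 0.05. Acot6 averaged 6.27 CPM in CKD and 4.92 CPM in control ventricles (0.35, SE 0.13, edgeR adjusted p = 0.215), and Acot7 averaged 44.0 CPM in CKD and 51.0 CPM in control ventricles (-0.21, SE 0.12, adjusted p = 0.423). The 9 carnitine genes, which exchange acyl groups between carnitine and CoA, had a median of 0.03, with 1 under an unadjusted p of 0.05. Crat, carnitine acetyltransferase, averaged 435 CPM in CKD and 518 CPM in control ventricles (-0.26, SE 0.10, adjusted p = 0.247), and Cpt2, which forms acyl-CoA inside mitochondria, averaged 199.99 CPM in CKD and 247 CPM in control ventricles (-0.30, SE 0.16, adjusted p = 0.366). The 7 genes for N-myristoylation and acyl-CoA binding had a median of -0.01, with 0 under an unadjusted p of 0.05; the lowest p values were those of Nmt2 (-0.19, SE 0.10) and Acbd5 (0.11, SE 0.16). The list of PPAR targets often measured with Pank1 also holds the receptor gene Ppara and the coactivator gene Ppargc1a. Its 10 genes had a median of 0.05, with 1 under an unadjusted p of 0.05. That was Acadm, the medium-chain acyl-CoA dehydrogenase, with 1528 CPM in CKD and 1349 CPM in control ventricles (0.18, SE 0.08, adjusted p = 0.275), followed by the coactivator gene Ppargc1a with 180 CPM in CKD and 153 CPM in control ventricles (0.24, SE 0.14, adjusted p = 0.420).

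**Figure D5:**
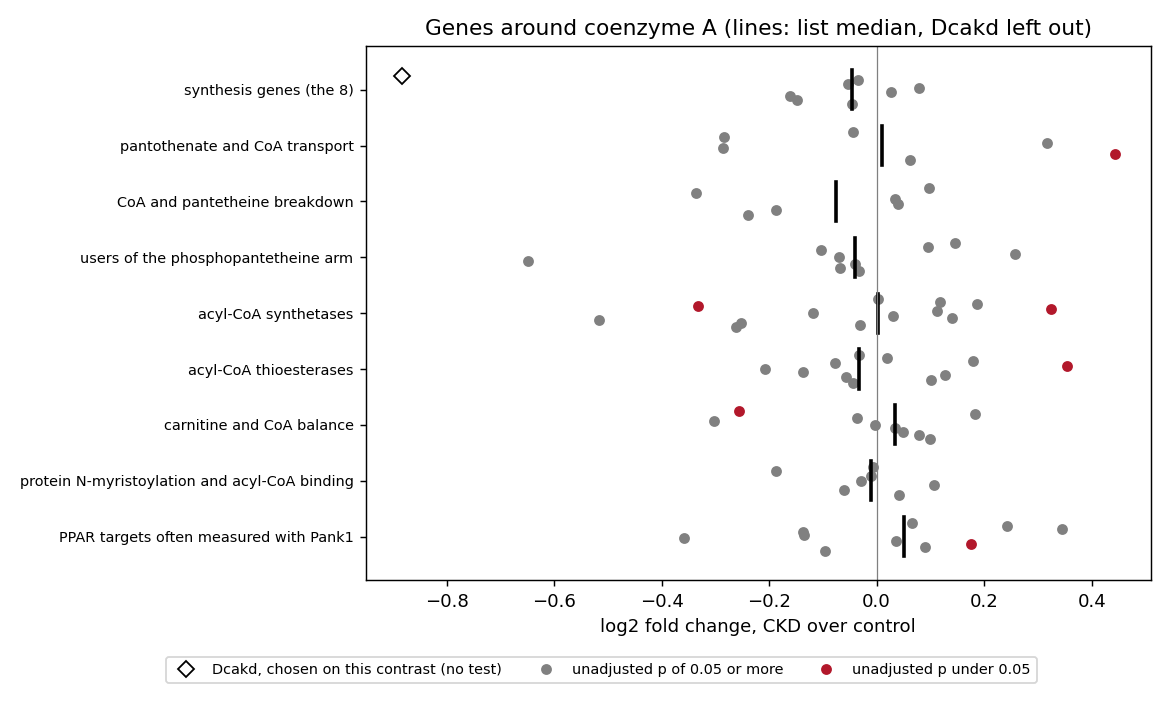
Log2 fold change of CKD over control (horizontal axis) for the 8 genes and for each tested member of 8 lists around coenzyme A, 1 point per gene, with the list median (without Dcakd) as a line and unadjusted p under 0.05 in red. List medians lie between -0.08 and 0.05, and the open diamond of Dcakd at -0.88 is a description.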

How the data were processed

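RNA of ventricles from 16 mice was read as paired ends on an Illumina HiSeq2500 after a Qiagen column kit, per the labels' protocols. The authors deposited 1 table of raw counts, which are whole numbers of reads per gene without any scaling and with 0 rows that name no gene. Reads were aligned to mm10 and counted with tools that the submitters' processing notes list as STAR 2.6.1d and featureCounts (Subread 1.6.3), beside FastQC, MultiQC and, in version 1.30.1, DESeq2. No source used here states the annotation release or the strand setting, so genes that overlap on opposite strands may exchange counts. Of 33399 genes, 33367 were matched to GENCODE M21 (GRCm38).

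Groups came from the treatment and sex labels. The counts went into edgeR 4.0.16 (R 4.3.3). A filter (filterByExpr, minimum count 10, total 15) left 16400 genes and at least 99.8% of the counts of each library, scaling was by TMM with CPM per 1000000 scaled counts, and the quasi-likelihood F test compared CKD with control, with sex in the model. Effects within a sex came from a fit on the 4 groups. Tests were two-sided, adjusted by Benjamini-Hochberg over all genes, and intervals are 95% intervals of the fit. The spread in the fit holds both counting error, which weighs more at low counts, and variation between mice. RPKM used the union of annotated exons. Correlations used 100000 permutations of libraries within groups. The fit was tested on simulated data. Alternatives were DESeq2 1.42.0, limma-voom (limma 3.58.1), RLE or upper-quartile scaling, other filters, title number as a factor or held at 6, 1 surrogate variable (sva 3.50.0), removal of GC and length trends, no sex term, and libraries left out. Named besides the 8 genes were, from each list, the 2 with the lowest p where none passed, tested genes within 50 kb of Dcakd, the 3 genes most like Dcakd and Coasy, and the genes at the threshold. The members and lists were chosen with earlier results of these data known.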

Additional observations from a re-analysis of the deposited data

Results flagged for a closer look

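Of 48 groups of libraries checked over the 8 genes, 4 held a library whose gap to its nearest neighbour was too large for the range of its group by Dixon's criterion, and chance flags about 5% of groups. Pank3 had 17.15 CPM in male CKD 4, against 49.8 to 63.0 CPM in the other 7 CKD libraries. It had 23.93 CPM in male control 3, against 43.6 to 57.3 CPM in the other 7 control libraries. Ppcs had 15.64 CPM in male CKD 4, against 8.65 to 9.23 CPM in the other 3 male CKD libraries. Ppcs had 10.24 CPM in male control 2, against 13.8 to 14.3 CPM in the other 3 male controls. Dcakd had no such library in any group.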

How the results depend on the processing

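The log2 fold change of Dcakd, CKD over control, stayed negative in 30 of 30 alternatives, between -0.99 and -0.73, and between -0.99 and -0.82 when 1 library was left out; in 14 of the 30 its adjusted p was under 0.05. As Dcakd was chosen on this contrast in the same libraries, these values are a description and add no evidence. Over the same alternatives the 7 synthesis genes had 0 calls. DESeq2 called 398 genes in this comparison and limma-voom 199, against 14 by edgeR; the title number as a factor gave 234, library numbers 3 to 6 as a factor 96, and only libraries with title number 6 gave 8; the cause was not tested. For males against females among CKD mice limma-voom called 1 of the 8 genes, Dcakd, against 0 by edgeR; the cause was not tested. Without GC and length trends the sex difference of Dcakd in controls was -0.06. With only title number 6, the log2 fold change of Dcakd in males was -0.37 and the difference between the sexes 0.70. The males in that fit were only male CKD 1 and 3 and male control 1 and 2. With 1 surrogate variable the sex difference of Pank1 was 0.11 in controls and 0.03 in CKD mice. Of neighbouring pairs in the order of levels, 3 passed in controls and when any 1 control was left out. With the longest transcript as length 2 passed, without Pank4 over Dcakd (permutation test, adjusted p = 0.0911), and 2 passed in CKD mice. These counts include pairs of Dcakd, which are a description because its control values had a part in its choice. The passing pair without Dcakd in controls was Pank2 over Ppcdc. Groups of 4 limit the tests within a sex. No paired analysis was possible because the labels give no replicate numbers; with the shared title number as a factor the log2 fold change of Dcakd was -0.86.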
